A study of Mus musculus with 24 samples.

Results

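Ager, Hopx, Pdpn, Aqp5, Akap5, Rtkn2, Cav1, Clic5, Emp2 and Igfbp2 are genes by which alveolar type 1 cells are recognised in the mouse lung. They were taken as the rows of the gene count table whose symbol equalled one of these names, which gave 10 of 51912 genes, and all 10 passed the filter on low counts. Their levels were followed over 3 stages around birth in control lungs and in lungs with a deletion of Sin3a, which encodes the scaffold protein of a histone deacetylase corepressor complex.

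Alveolar type 1 cells are thin, flat epithelial cells that line most of the gas exchange surface and lie against the capillary endothelium. They arise, together with the cuboidal, surfactant-producing alveolar type 2 cells, from progenitors at the distal tips of the branching airways late in gestation, and they spread and thin before and after birth. The transcription factor NKX2-1 and the YAP and TAZ coactivators, which act with TEAD factors, are known to hold their identity. Several of the 10 genes are also used by other cells of the lung. Cav1 is abundant in endothelium, Pdpn in lymphatic endothelium and mesothelium, and Hopx in other tissues, the heart among them.

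RNA was taken from whole lungs at embryonic day 16 (E16), on the day of birth (P0) and at postnatal day 3 (P3), with 4 control and 4 conditional knockout (CKO) libraries per stage, 24 in all. The titles give every group the Tbx4rtta and tetocre transgenes, a pair in which a Tbx4 element active in lung mesenchyme drives a doxycycline-dependent activator and that activator drives Cre recombinase. Doxycycline was given to the pregnant mothers from E12 in every group. CKO lungs are titled Sin3a F/F at all stages, while controls are titled Sin3a F/+ at E16 and P0, and Sin3a F/F at P3. By its title the P3 control thus carries the same alleles as the P3 CKO, and what sets it apart is not given in the labels. The Tbx4 element is not known for activity in epithelium, where most of the genes described here are expressed. In whole-lung RNA, fewer cells of a type and less RNA per cell cannot be told apart, and the labels give no preparation or sequencing batch, so that a batch that goes with stage could not be told apart from stage.

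Totals ran from 27.02 to 36.35 M counts per library. Whole-lung Sin3a itself ran from 105 to 144 CPM (counts per 1 M counts) in E16 CKO lungs against 125 to 142 in E16 controls, and the genotypes overlapped at P0 and P3 as well. The surfactant gene Sftpc, a lung epithelial gene, stood at 3224 ± 535 CPM in E16 controls and 9747 ± 1718 in P0 controls (mean ± SD, n = 4 here and throughout). Some libraries stood apart. P0 control replicate 3 and P0 CKO replicate 1 held 2238 and 1716 summed CPM of 13 thymus genes against 6.57 to 19.97 in the other P0 libraries, P0 CKO replicate 3 held 347 summed CPM of 7 cartilage genes against 23.1 to 66.7, and Xist exceeded 100 CPM in 1 of 4 E16 controls and 4 of 4 E16 CKO lungs. That thymus-rich pair shares an identifier prefix in the labels, and results that use P0 are therefore also given without it for the 10 genes and, where counts differed most, for the lists beside them. High Xist went largely with the CKO genotype at E16, so a difference that goes with Xist could hardly be told apart from genotype there. At P0 3 of 4 controls and 2 of 4 CKO lungs exceeded that Xist level, and at P3 1 and 2 did.

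Stretches around transcription starts of 4 of these genes are printed. They belong to the genes with the largest rise, the opposite change and the clearest genotype difference, and to the only motif match. The stretches are RefSeq windows of 300 bases (GRCm38.p6), from 250 bases before to 50 after a start, read 5′ to 3′ on the gene's strand. By the gene coordinates given below, the Aqp5 and Hopx windows surround starts inside the gene. Most of the Aqp5 window and all of the Hopx window thus lie within the gene rather than before it. The other Hopx window, at the outer end of the gene (77115074 to 77115373), is not printed and held no match. In the first 3, capitals mark CG dinucleotides, and in the Hopx window they mark the match to an NKX2-1 core motif.
Aqp5, chr15:99590778-99591077, plus strand: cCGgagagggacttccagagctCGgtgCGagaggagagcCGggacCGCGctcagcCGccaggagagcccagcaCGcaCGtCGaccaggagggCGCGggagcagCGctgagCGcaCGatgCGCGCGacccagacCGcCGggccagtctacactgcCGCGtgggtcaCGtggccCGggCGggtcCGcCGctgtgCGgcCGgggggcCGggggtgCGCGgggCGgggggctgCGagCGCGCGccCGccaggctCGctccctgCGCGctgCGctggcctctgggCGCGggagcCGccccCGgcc
Igfbp2, chr1:72824230-72824529, plus strand: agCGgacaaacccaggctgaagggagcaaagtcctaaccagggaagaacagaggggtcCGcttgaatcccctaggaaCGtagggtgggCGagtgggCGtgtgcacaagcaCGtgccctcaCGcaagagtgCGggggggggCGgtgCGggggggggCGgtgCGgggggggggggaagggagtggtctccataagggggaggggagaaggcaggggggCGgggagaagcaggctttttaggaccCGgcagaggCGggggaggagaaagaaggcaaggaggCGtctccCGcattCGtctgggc
Pdpn, chr4:143299515-143299814, minus strand: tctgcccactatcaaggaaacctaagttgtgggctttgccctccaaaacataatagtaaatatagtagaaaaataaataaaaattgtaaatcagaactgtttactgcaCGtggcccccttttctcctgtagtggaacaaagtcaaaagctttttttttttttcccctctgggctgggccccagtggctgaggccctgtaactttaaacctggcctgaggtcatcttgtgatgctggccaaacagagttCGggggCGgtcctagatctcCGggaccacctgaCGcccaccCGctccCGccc
Hopx, chr5:77095218-77095517, minus strand: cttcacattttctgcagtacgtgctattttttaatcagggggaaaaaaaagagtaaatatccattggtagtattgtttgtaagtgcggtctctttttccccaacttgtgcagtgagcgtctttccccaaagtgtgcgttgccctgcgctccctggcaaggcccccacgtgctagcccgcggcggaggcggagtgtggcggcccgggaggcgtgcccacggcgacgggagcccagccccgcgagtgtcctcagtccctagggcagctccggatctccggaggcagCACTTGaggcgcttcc

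The windows differed in base composition. The Aqp5 window held 46 CG dinucleotides and was 79.7% G or C, where 98.4% of 32851 RefSeq windows had fewer CG dinucleotides. The Igfbp2 window held 18 and the Pdpn window 7, and the median over all windows was also 7. A TEAD element (GGAATG, searched on both strands) occurred in 0 of the 12 windows found for 9 of the 10 genes, and 14.7% of all windows held it. The NKX2-1 core (CAAGTG, both strands, no overlap with the TEAD element) occurred in 1 of the 12, and 13.6% of all windows held it. That was the Hopx window printed above, where it read on the reverse strand from 34 bases after the internal start. These are matches of letters and say nothing of binding.

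Compared per length, as CPM per kilobase of exon, Cav1 had the highest mean of the 10 genes in all 6 groups and Ager the second highest. In E16 controls Cav1 stood at 265 and Ager at 97.7 CPM per kb, with no overlap between their libraries, whereas at P0 (460.1 and 416) and P3 (337 and 327) their ranges overlapped. Rtkn2 ranked ninth in every group. The bottom rank was held by Aqp5 at E16, at 1.40 CPM per kb in controls, and by Igfbp2 at P0 (10.2) and P3 (26.1). Among the other ranks, Emp2 came next to Ager at P0 and P3, with no overlap with Ager above it or with the gene below it in both genotypes. Hopx, Emp2 and Akap5 at E16 overlapped among themselves in that order in both genotypes. At P0 Akap5, Clic5 and Aqp5 also overlapped among themselves in both genotypes, in that order in controls, with Clic5 above Akap5 in CKO lungs.

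**Figure D1:**
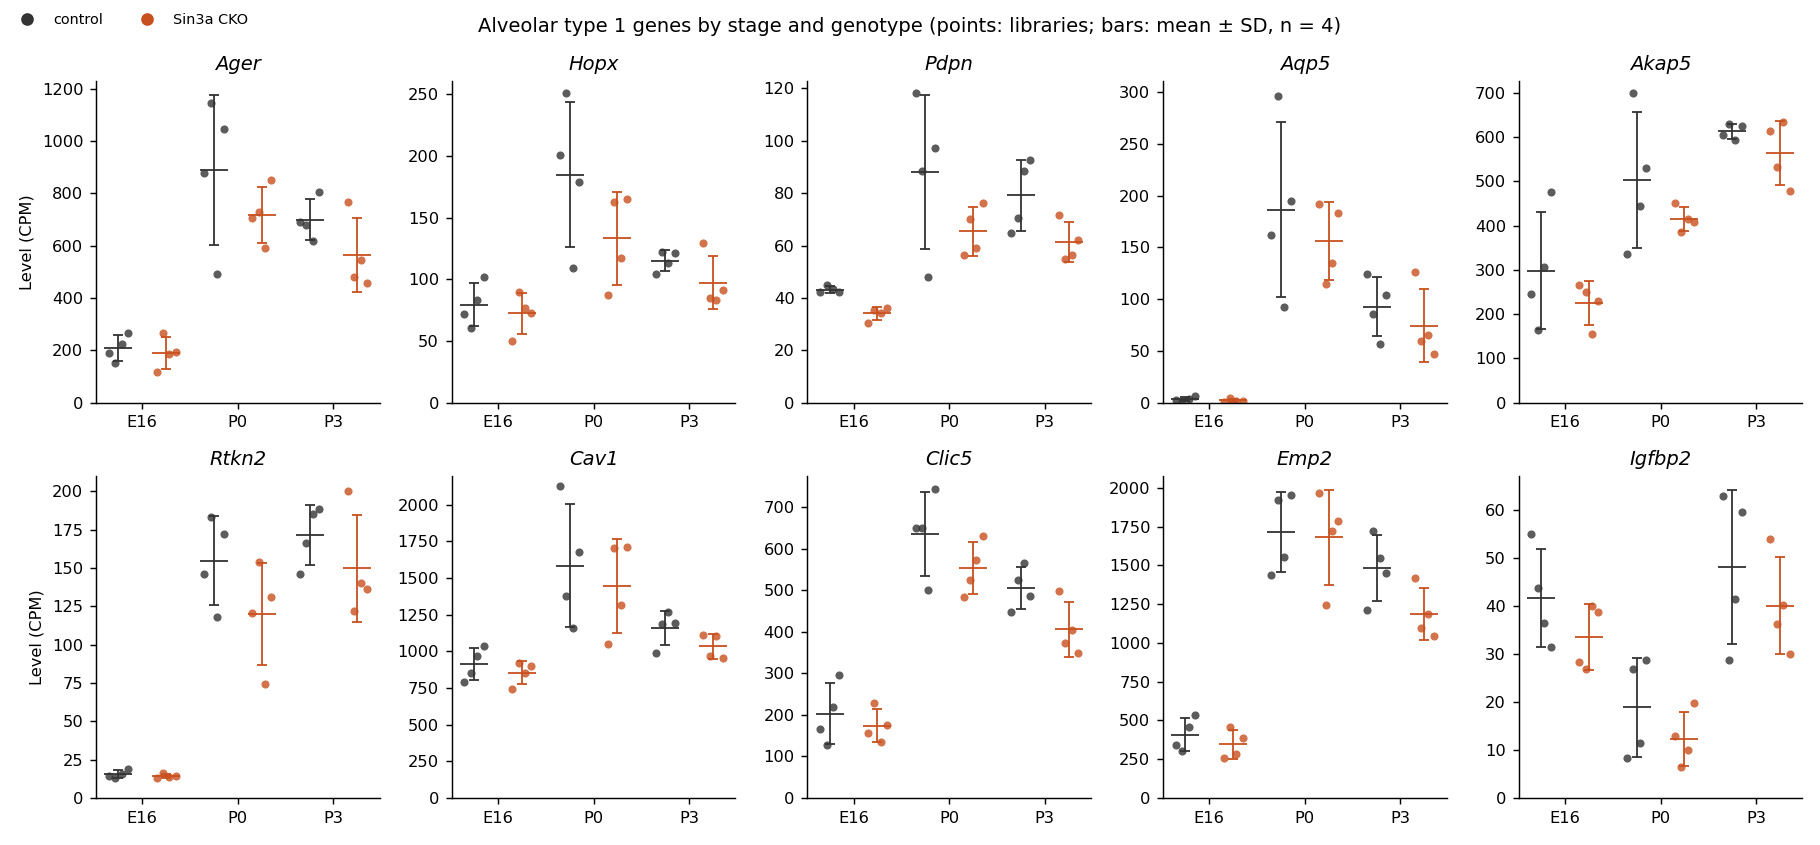
Level of each gene (CPM, vertical axis, starting at 0) in the 24 libraries by stage (horizontal axis), with controls in grey and CKO lungs in orange; points are libraries, and bars give the mean ± SD of 4. Aqp5 lies between 0.874 and 6.53 CPM in all 8 E16 libraries and between 92.7 and 296 in controls at P0, and Igfbp2 alone of the 10 is lowest at P0.

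The clearest pattern was the change between E16 and P0. In control lungs 9 of the 10 genes rose and Igfbp2 fell (edgeR quasi-likelihood test, adjusted p under 0.05 over 18415 genes), and in CKO lungs the same 9 rose and Igfbp2 fell. The shift was broad. Of all genes, 25.3% rose and 22.3% fell in controls, and 24.7% rose and 20.6% fell in CKO lungs. The median log2 fold change of the 10 genes was 1.44 in controls and 1.31 in CKO lungs, against 0.05 and 0.06 over all genes tested. In controls 8 genes were higher at P0 with no overlap of libraries (20.1% of all genes were) and Igfbp2 was the 1 lower (20.9%), and in CKO lungs the counts were 8 (17.7%) and 1 (16.7%). Akap5 in controls and Hopx in CKO lungs were the ones that rose with some overlap. P-values here measure the spread between libraries that the titles call biological replicates, and the thymus-rich pair, left out together, changed none of these 20 calls.

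Ager encodes the receptor for advanced glycation end products, a surface protein of the basal side of type 1 cells (chromosome 17, 34597862 to 34600936, plus strand, GRCm38). At E16 it stood at 191, 152, 226 and 268 CPM in the 4 controls and 117, 265, 186 and 193 in the 4 CKO lungs. At P0 the values were 878, 1144, 492 and 1045 in controls and 707, 728, 590.3 and 852 in CKO lungs, and at P3 they were 692, 680.1, 620.2 and 807 and 768, 480.4, 547 and 459. Every P0 and P3 library lay above every E16 library, the genotypes overlapped at each stage, and 3 of 4 P3 CKO lungs lay below all P3 controls. Between E16 and P0 Ager rose by 2.09 ± 0.25 on the log2 scale in controls (mean ± SE, adjusted p = 1.05e-06) and by 1.92 ± 0.25 in CKO lungs (adjusted p = 2.75e-06).

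Pdpn encodes podoplanin, a mucin-like glycoprotein of the apical membrane (chromosome 4, 143267431 to 143299564, minus strand). It was even among E16 controls, at 42.2, 44.9, 43.3 and 42.4 CPM, and stood at 30.5, 35.2, 34.4 and 36.3 in E16 CKO lungs. P0 controls spread widely, at 118, 88.7, 48.1 and 97.2, and P0 CKO lungs lay at 56.6, 70.1, 59.0 and 76.1. At P3 controls were at 64.9, 70.7, 88.6 and 92.7 and CKO lungs at 71.7, 54.9, 56.3 and 62.1. All E16 CKO libraries lay below all E16 controls, and at P0 and P3 the genotypes overlapped, with the thymus-rich control as the lowest library of P0. From E16 to P0 Pdpn rose by 1.03 ± 0.18 in controls (adjusted p = 0.000105) and 0.94 ± 0.18 in CKO lungs (adjusted p = 0.00027).

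Hopx encodes a small homeodomain protein that binds no DNA itself and acts with other transcriptional regulators (chromosome 5, 77086988 to 77115121, minus strand). Its E16 values were 72.3, 60.3, 83.5 and 102 CPM in controls and 50.4, 89.6, 77.1 and 72.8 in CKO lungs. At P0 they were 201, 251, 109 and 179 in controls and 87.5, 163, 118 and 165 in CKO lungs, and at P3 104, 122, 114 and 121 and 129, 85.2, 83.5 and 91.2. The genotypes overlapped at each stage, and at P3 the first CKO library lay above all controls while the other 3 lay below all of them. Hopx rose by 1.22 ± 0.24 from E16 to P0 in controls (adjusted p = 0.000229) and by 0.88 ± 0.23 in CKO lungs (adjusted p = 0.00404).

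Aqp5, the water channel of the type 1 apical membrane (chromosome 15, 99590782 to 99594829, plus strand), had the largest rise of the 10. At E16 it was low, at 2.83, 1.44, 3.76 and 6.53 CPM in controls and 0.874, 4.68, 1.49 and 2.02 in CKO lungs. P0 levels were 162, 296, 92.7 and 194 CPM in controls and 192, 115, 135 and 183 in CKO lungs. P3 levels were 124, 85.7, 57.1 and 104 and 126, 59.3, 65.2 and 46.8. No E16 library came near any later one, and P3 libraries lay in the lower part of the P0 range or beneath it. The rise from E16 to P0 was 5.67 ± 0.53 on the log2 scale in controls (adjusted p = 5.48e-08) and 6.09 ± 0.55 in CKO lungs (adjusted p = 2.66e-08).

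Clic5, Cav1 and Emp2 also belong to the membrane and the cell cortex. Clic5, an intracellular chloride channel family protein linked to the actin cortex (chromosome 17, 44188584 to 44280172, plus strand), lay at 127 to 297 CPM in E16 controls and at 499 to 743 in P0 controls, and rose by 1.65 ± 0.21 in the control and 1.67 ± 0.21 in the CKO group (adjusted p = 1.46e-06 and 1.23e-06). Emp2, a tetraspan membrane protein (chromosome 16, 10281749 to 10313968, minus strand), lay at 304 to 535 CPM in E16 controls and at 1437 to 1955 in P0 controls and rose by 2.07 ± 0.20 and 2.28 ± 0.20 (adjusted p = 7.55e-08 and 1.99e-08). For both genes every P0 library lay above every E16 library of its genotype. Cav1, the main coat protein of caveolae (chromosome 6, 17306335 to 17341452, plus strand), was already high at E16, at 794 to 1037 CPM in controls, and reached 1157 to 2126 at P0. Its rise of 0.80 ± 0.17 in the control and 0.76 ± 0.17 in the CKO group (adjusted p = 0.000495 and 0.00082) was among the smallest of the 9.

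Akap5 and Rtkn2 encode signalling proteins. Rtkn2, a rhotekin family protein (chromosome 10, 67979570 to 68059740, plus strand), was narrow at E16, at 12.9 to 19.0 CPM in controls and 13.0 to 16.5 in CKO lungs. It reached 118 to 183 and 74.6 to 154 at P0, a rise of 3.32 ± 0.21 in controls (adjusted p = 1.64e-10) and 3.07 ± 0.21 in CKO lungs (adjusted p = 3.85e-10), second in size only to Aqp5 among the 10. Akap5, which anchors protein kinase A and calcineurin at the membrane (chromosome 12, 76324891 to 76334153, plus strand), spread from 163 to 476 CPM in E16 controls and 336 to 699 in P0 controls, which overlapped. Its rise was 0.75 ± 0.24 in controls (adjusted p = 0.0123) and 0.88 ± 0.24 in CKO lungs (adjusted p = 0.00455), and the call in controls was lost without E16 control replicate 2 (0.55, adjusted p = 0.0501) or without P0 control replicate 2 (0.55, adjusted p = 0.0680).

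Igfbp2, a secreted binding protein of insulin-like growth factors that marks a mature subset of type 1 cells (chromosome 1, 72824503 to 72852474, plus strand), moved the other way. At E16 it stood at 55.1, 43.7, 36.5 and 31.4 CPM in controls and 28.4, 26.9, 40.0 and 38.9 in CKO lungs. At P0 the values were 8.40, 26.8, 11.5 and 28.7 in controls and 12.9, 6.55, 9.92 and 19.8 in CKO lungs, and at P3 they were 62.9, 28.7, 41.5 and 59.6 and 53.9, 36.3, 40.2 and 30.0. P0 libraries lay below all E16 libraries of their genotype, and P3 libraries returned to the E16 range or above it, except that the lowest P3 control was level with the highest P0 control. From E16 to P0 Igfbp2 fell by 1.14 ± 0.36 in controls (adjusted p = 0.0117) and fell by 1.45 ± 0.36 in CKO lungs (adjusted p = 0.00252).

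**Figure D2:**
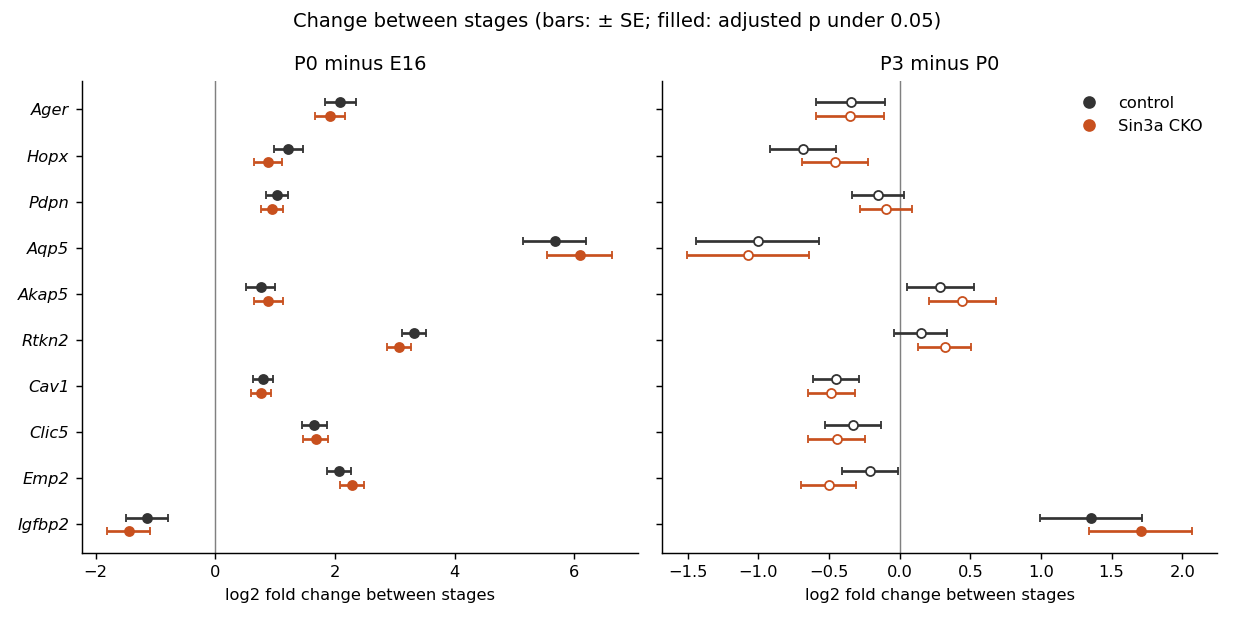
Log2 fold change of each gene between stages (horizontal axis), from E16 to P0 on the left and from P0 to P3 on the right, in controls (grey) and CKO lungs (orange); bars are ± SE and filled points passed adjusted p under 0.05. Genotypes lie close together, all 10 genes are filled on the left, and only Igfbp2 is filled on the right.

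From P0 to P3 Igfbp2 was the 1 gene of the 10 that changed. It rose by 1.35 ± 0.36 in controls (adjusted p = 0.0208) and 1.71 ± 0.36 in CKO lungs (adjusted p = 0.00493), where 4.97% and 6.15% of all genes rose. None of the 10 fell, while 6.34% of genes in controls and 6.9% in CKO lungs did (edgeR). At unadjusted p under 0.05, 4 of the 10 differed in controls and 5 in CKO lungs, where 28.5% and 30.5% of all genes did. DESeq2 called 2 of the 10 in each genotype (16.3% and 18% of all genes) and limma-voom 1 and 2 (10.3% and 12.7%). The other 9 ran from -1.01 (Aqp5) to 0.29 (Akap5) in controls and from -1.07 to 0.44 in CKO lungs, both ends held by the same genes. Without the thymus-rich pair 21.9% of all genes passed in controls and 11.3% in CKO lungs, against 11.3% and 13% with it, and 3 of the 10 passed in each genotype, as Hopx changed by -0.87 in the control and -0.61 in the CKO group (adjusted p = 0.00469 and 0.0489) and Cav1 by -0.57 and -0.61 (adjusted p = 0.00735 and 0.00820). The rise of Igfbp2 in controls was lost without P0 control replicate 1, P3 control replicate 1 or P3 control replicate 4 (1.13, 1.20 and 1.23, adjusted p = 0.0621, 0.0503 and 0.0568).

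Set directly against E16, a contrast added after the values were seen, P3 lungs were higher in 7 of the 10 genes in both genotypes, where 20% of all genes in controls and 19.9% in CKO lungs were higher. Hopx (0.54 ± 0.23, adjusted p = 0.0692), Cav1 (0.35 ± 0.17, adjusted p = 0.0993) and Igfbp2 (0.21 ± 0.35, adjusted p = 0.664) did not pass in controls, nor did these 3 in CKO lungs. Rtkn2 and Akap5 had their highest means at P3, and the other 7 genes that rose to P0 had theirs at P0. At P3 the control genotype differs by title from that at E16 and P0.

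The series' design text describes a comparison of CKO with control lungs at each stage. None of the 10 passed the test at any stage (edgeR, adjusted over all genes), although the fitted change was negative for all 10 genes at E16, at P0 and at P3. Genes lower in CKO lungs made up 0.0181% of 16606 tested at E16, 0.0291% of 17198 at P0 and 0.0117% of 17113 at P3, so few genes of any kind passed. Among all genes 51.9%, 53.3% and 52.6% had negative changes, and their median change was -0.01, -0.02 and -0.01 against -0.23, -0.30 and -0.30 for the 10. The 10 genes vary together between libraries, as shown further on, so that their signs are not 10 separate observations. At unadjusted p under 0.05, 1 of the 10 differed at E16, 0 at P0 and 3 at P3, where 10.5%, 6.44% and 15.4% of all genes did. DESeq2 called 1 (Pdpn at E16, -0.33, adjusted p = 0.00210), 0 and 0 (1.8%, 1.1% and 3.52% of all genes), and limma-voom 0 at each stage. At P0, without the thymus-rich pair, 3 of the 10 were at unadjusted p under 0.05 (9.38% of all genes) and the 10 changes ran from -0.82 (Igfbp2) to -0.14 (Cav1), with adjusted p from 0.425 to 0.886.

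**Figure D3:**
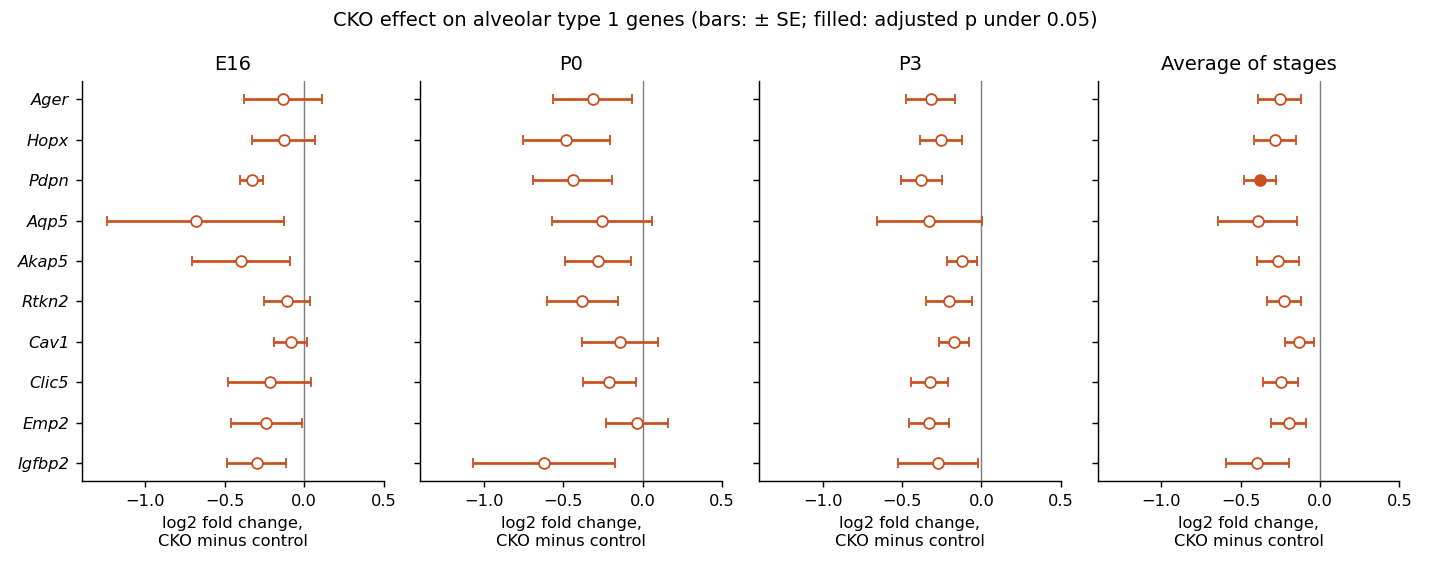
Log2 fold change of CKO against control lungs (horizontal axis) for each gene at E16, P0 and P3 and averaged over the stages; bars are ± SE and filled points passed adjusted p under 0.05. All points lie below 0, those at P0 have wide errors, and Pdpn in the average is the only filled point.

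At P3 the outcome rested on 1 library. P3 CKO replicate 1 was the highest of the 4 CKO lungs in 9 of the 10 genes, and without it 6 of them passed as lower in CKO lungs, namely Ager (-0.50, adjusted p = 0.0181), Hopx (-0.41, adjusted p = 0.0147), Clic5 (-0.43, adjusted p = 0.0217), Rtkn2 (-0.37, adjusted p = 0.0389), Emp2 (-0.42, adjusted p = 0.0423) and Pdpn (-0.46, adjusted p = 0.0459). Calls over all genes rose from 2 to 1625 of 17369 in the same fit. Nothing in the labels sets that library apart. At E16, 7 of the 10 genes were lowest in CKO replicate 1 among CKO lungs, 7 were lowest in control replicate 2 among controls, and 8 were highest in control replicate 4.

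Of the single genes, Pdpn had the change with the smallest error at E16, -0.33 ± 0.07 (adjusted p = 0.309), with means of 43.2 ± 1.26 and 34.1 ± 2.53 CPM in the control and CKO groups. It was the 1 gene of the 10 lower in CKO lungs with no overlap of libraries at E16, where 2.16% of genes were, and 0 of the 10 were so at P0 or P3, where 1.86% and 3.26% were. High Xist went largely with the CKO genotype at E16, as given above. At P0 the means of Pdpn were 88.1 ± 29.5 and 65.4 ± 9.24 (-0.44 ± 0.25, adjusted p = 0.874) and at P3 79.2 ± 13.5 and 61.2 ± 7.62 (-0.38 ± 0.13, adjusted p = 0.228). Without the thymus-rich pair the P0 change was -0.58 (adjusted p = 0.425).

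Averaged over the stages in a joint fit of the 24 libraries, Pdpn was the only one of the 10 genes that passed, and fell by 0.38 ± 0.10 in CKO lungs (adjusted p = 0.0203), where 3% of 18415 genes fell. The direction and the call held in all 35 alternatives run, between -0.44 and -0.32 with adjusted p from 0.00103 to 0.0426. With the identifier prefix of the labels as a block Hopx passed as well (-0.28, adjusted p = 0.0456), in a fit that called 15.6% of all genes against 8.38% without the block. What the prefixes stand for is not given in the labels. At P0 each of the 4 prefixes holds 1 control and 1 CKO lung, and 1 of these pairs is the thymus-rich pair. Hopx and Clic5 were lower in the CKO lung in 4 of 4 such pairs. Ager, Pdpn, Aqp5, Cav1, Emp2 and Igfbp2 were so in 3, and Akap5 and Rtkn2 in 2. The share of all genes lower in as many pairs was not computed, so these counts have no background to be read against. Without a block the other 9 ran from -0.40 (Igfbp2, adjusted p = 0.244) to -0.13 (Cav1, adjusted p = 0.432), with Clic5 (-0.25 ± 0.11, adjusted p = 0.187) and Hopx (-0.28 ± 0.13, adjusted p = 0.205) among the smallest p after Pdpn. The median of the 10 was -0.26, against -0.02 over all genes, of which 53.9% were negative. The CKO effect passed no test of a difference between stages (0 of 10 for each pair of stages by edgeR, and 0 at unadjusted p under 0.05), and 0% of all genes passed that test for P0 minus E16, 0% for P3 minus P0 and 0% for P3 minus E16. DESeq2 and limma-voom called 0 of the 10 in the 3 differences too.

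Pdpn is not particular to type 1 cells, and genes of other cells that carry it are set beside it here. Of all genes 53.9% were negative in the stage average and 3% fell. Of 6 lymphatic endothelial genes all 6 were negative (median -0.32) and Lyve1, a hyaluronan receptor, fell by 0.77 (adjusted p = 0.00488). The summed level of the lymphatic list was 199 to 235 CPM in E16 CKO lungs against 239 to 265 in controls, 264 to 421 against 547 to 900.4 at P0, and 233 to 458 against 410.4 to 531 at P3. Its mean log2 CPM overlapped at E16 (4.14 to 4.87 in CKO lungs against 4.42 to 4.68), where 2 of the 6 genes were higher in CKO lungs. At P0 this mean was 4.56 to 5.04 against 5.06 to 5.83, and at P3 4.87 to 5.41 against 5.41 to 5.48. Prox1, the defining transcription factor of lymphatic endothelium, changed by -0.11 (adjusted p = 0.784). Without the thymus-rich pair all 6 lymphatic genes stayed negative (median -0.29) and Flt4, a lymphatic growth factor receptor, also fell (-0.38, adjusted p = 0.0331). Of all genes 4.23% fell in that fit. Of 8 mesothelial genes 7 were negative (median -0.41), and the uroplakins Upk3b (-0.44, adjusted p = 0.0301) and Upk1b (-0.60, adjusted p = 0.0434) fell. The summed mesothelial level was 173 to 185 CPM against 175 to 218 at E16, 451 to 828 against 580.2 to 1068 at P0, and 364 to 649 against 529.5 to 691 at P3. Upk3b alone of the 8 passed without the thymus-rich pair (-0.43, adjusted p = 0.0306), and Pdpn fell by 0.41 (adjusted p = 0.00123). The part of these cells in the Pdpn result was not tested.

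Another 24 genes that are enriched in type 1 cells, listed without the 10, went the same way. From E16 to P0, 19 of the 24 rose in controls and 19 in CKO lungs and 0 fell, with a median of 1.65 and 1.60. Of all genes 25.3% rose and 22.3% fell in controls, and 24.7% rose and 20.6% fell in CKO lungs. Spock2, a matrix proteoglycan (3.95 ± 0.28 in controls), Pxdc1 (3.22 ± 0.20), the basement membrane collagen Col4a3 (3.10 ± 0.30), the epithelial sodium channel subunits Scnn1b (3.18 ± 0.27) and Scnn1g (3.02 ± 0.19) and the small heat shock protein Cryab (1.65 ± 0.15) had the smallest p in controls. In CKO lungs these were Pxdc1, Scnn1g, Spock2, Cryab, Scnn1b and Gprc5a, a retinoic acid-induced receptor (2.32 ± 0.23). Scnn1g averaged 25.4 ± 3.22 CPM at E16 and 206 ± 47.0 at P0 in controls, against 22.8 ± 2.19 and 162 ± 26.3 in CKO lungs. From P0 to P3 the keratin Krt7 fell by 1.02 ± 0.22 in controls and fell by 1.42 ± 0.23 in CKO lungs and Sema3e, a semaphorin, rose by 0.80 ± 0.22 and 0.87 ± 0.22 (adjusted p = 0.00760, 0.000627, 0.0260 and 0.0155). In CKO lungs Gprc5a also fell by 1.17 ± 0.22 (adjusted p = 0.00202). Of all genes 6.34% fell and 4.97% rose in controls from P0 to P3, and 6.9% fell and 6.15% rose in CKO lungs. With the thymus-rich pair left out, 5 of the 24 fell and 1 rose in controls, where 11.8% of all genes fell and 10% rose. In CKO lungs 4 fell and 1 rose in that fit, where 5.83% of all genes fell and 5.45% rose.

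Between genotypes 23, 19 and 23 of these 24 genes were negative at E16, P0 and P3, where 51.9%, 53.3% and 52.6% of all genes were. No gene of the 24 passed at any stage (edgeR). At unadjusted p under 0.05 there were 1, 0 and 7, where 10.5%, 6.44% and 15.4% of all genes were. At P0 without the thymus-rich pair 21 were negative and 8 were at unadjusted p under 0.05, where 9.38% of all genes were at that p. The smallest p belonged to Cryab (-0.40 ± 0.11, adjusted p = 0.321) and Limch1 (-0.53 ± 0.25, adjusted p = 0.490) at E16. At P0 they were those of Col4a3 (-0.52 ± 0.23, adjusted p = 0.787) and Mal2 (-0.39 ± 0.21, adjusted p = 0.866), and at P3 those of Ndnf (-0.30 ± 0.08) and Flrt3 (-0.36 ± 0.10, adjusted p = 0.171 for both). In the stage average 22 of 24 were negative (median -0.23) and 1 gene passed, as Cryab fell by 0.30 ± 0.08 (adjusted p = 0.0283). Of all genes 53.9% were negative in that fit and 3% fell. The fit without the thymus-rich pair had 5 of the 24 lower (4.23% of all genes were), namely Cryab (-0.36, adjusted p = 0.00536), Col4a4 (-0.36, adjusted p = 0.0248), Sema3e (-0.33, adjusted p = 0.0308), Mal2 (-0.22, adjusted p = 0.0352) and Pxdc1 (-0.30, adjusted p = 0.0437). The levels of Cryab were 44.6 ± 3.19 and 33.4 ± 4.85 CPM at E16, 139.6 ± 23.3 and 123 ± 12.8 at P0, and 120.1 ± 16.4 and 96.7 ± 22.0 at P3, in controls and CKO lungs.

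Among 14 regulators tied to type 1 fate no gene passed between genotypes at any stage or in the average (edgeR). At unadjusted p under 0.05 there were 0 at E16, 0 at P0, 2 at P3 and 3 in the average, where 15.4% of all genes at P3 and 22% in the average were. Tead4 passed in the average without the thymus-rich pair (-0.36, adjusted p = 0.0224), where 4.23% of all genes fell. The smallest p were those of the TEAD factor Tead4 (-0.33 ± 0.15, adjusted p = 0.478) and Klf4 (-0.21 ± 0.13, adjusted p = 0.619) at E16, of the glucocorticoid receptor Nr3c1 and Klf4 at P0 (-0.33 ± 0.20 and -0.48 ± 0.37, adjusted p = 0.899 and 0.955) and at P3 (-0.22 ± 0.08 and -0.48 ± 0.21, adjusted p = 0.246 and 0.324), and of Tead4 and Nr3c1 in the average (-0.28 ± 0.10 and -0.25 ± 0.10, adjusted p = 0.0992 and 0.124). Between stages they went both ways. From E16 to P0, 4 rose and 5 fell in controls, where 25.3% of all genes rose and 22.3% fell. In CKO lungs 5 rose and 5 fell, where 24.7% and 20.6% of all genes did. With the thymus-rich pair left out, 4 rose and 3 fell in controls, where 26.5% and 24.5% of all genes did. Klf4, a Krüppel-like factor, rose by 3.51 ± 0.32 in controls and 3.27 ± 0.31 in CKO lungs, and Tead1 by 0.48 ± 0.15 and 0.58 ± 0.15. Tead2 (-0.98 ± 0.15 and -0.81 ± 0.15), Yap1 (-0.44 ± 0.08 and -0.33 ± 0.08) and the pioneer factor Foxa1 (-1.04 ± 0.21 and -0.80 ± 0.21) fell in both. Wwtr1, which encodes TAZ, rose in controls (0.70 ± 0.19, adjusted p = 0.00492), and Cebpa rose in CKO lungs (0.85 ± 0.23, adjusted p = 0.00449). From P0 to P3 Foxa1 and Klf4 fell in controls and in CKO lungs, and Klf5 fell in controls. The control changes were -0.74 ± 0.22, -0.98 ± 0.29 and -1.04 ± 0.30. Of all genes 6.34% fell in controls and 6.9% in CKO lungs. With the thymus-rich pair left out, 5 regulators fell in controls and 2 in CKO lungs, where 11.8% and 5.83% of all genes fell.

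**Figure D4:**
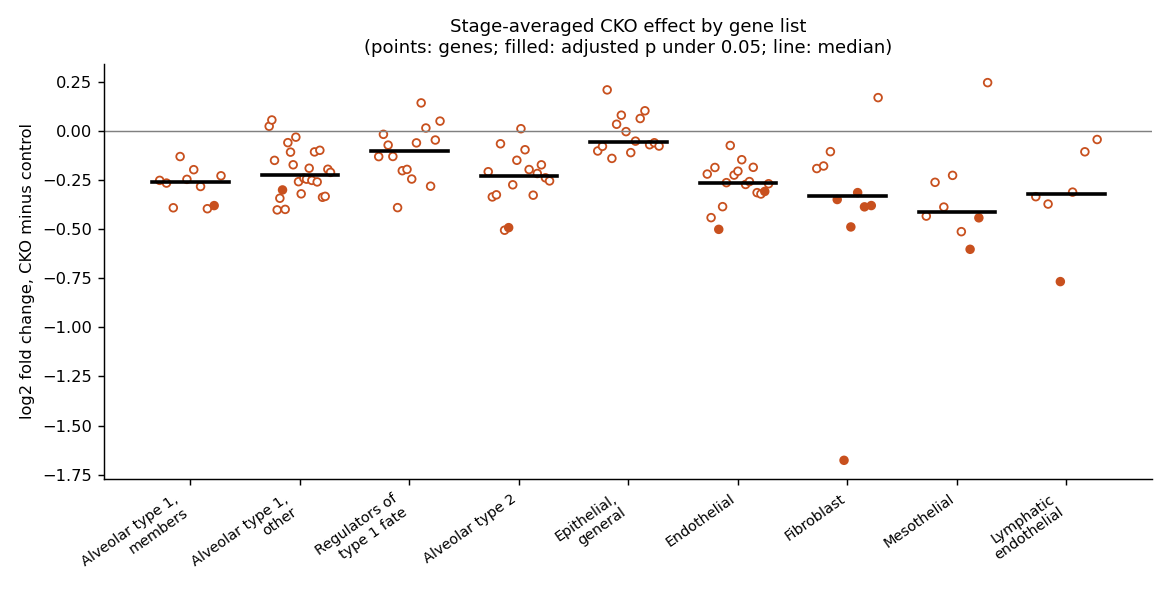
Stage-averaged log2 fold change of CKO against control lungs (vertical axis) for the genes of 9 lists (horizontal axis); points are genes, filled where adjusted p was under 0.05, and black lines are medians. The 10 type 1 genes (median -0.26) lie in the range of the type 2 (-0.23) and endothelial genes (-0.26), and the general epithelial genes lie nearer 0 (-0.06).

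Lists of other lung cells were set beside these to place the size of the difference. In the stage average 15 of 16 alveolar type 2 genes were negative (median -0.23, 1 fell), all 17 endothelial genes were (median -0.26, 2 fell), and 9 of 10 fibroblast genes were (median -0.33, 6 fell). Of all genes 53.9% were negative (median -0.02), 3% fell and 5.38% rose. Of 14 general epithelial genes 9 were negative (median -0.06, 0 fell), and of 8 airway genes 7 were (median -0.05, 0 fell). Smooth muscle genes did otherwise, with 4 of 6 positive (median 0.09) and Acta2, smooth muscle actin, higher by 0.78 (adjusted p = 0.00929). The summed smooth muscle level at P0 was 2055 to 2621 CPM in CKO lungs against 545 to 1430 in controls, with no overlap. The mean log2 CPM of the list, which weighs each gene alike, overlapped, at 6.74 to 7.99 against 5.81 to 7.63. At P0, 4 of the 6 genes were higher in CKO lungs and 2 lower, and 0 passed. Without the thymus-rich pair the medians were -0.28 for the 10, -0.25 for type 2 (0 fell), -0.30 for endothelial (6 fell) and -0.32 for fibroblast genes (6 fell). Of all genes 4.23% fell in that fit. The rise from E16 to P0 was likewise found among type 2 genes, of which 15 of 16 rose and 1 fell in each genotype, with a median of 2.40 in controls. Endothelial genes rose in 13 of 17 in each genotype (median 0.93 in controls and 0.77 in CKO lungs). Of the lists that share Pdpn or Hopx, 5 of 6 lymphatic, 6 of 8 mesothelial and 5 of 6 heart muscle genes rose in controls, and 3, 2 and 5 in CKO lungs (1, 2 and 5 without the thymus-rich pair). Of all genes 24.7% rose in CKO lungs (24.9% without the thymus-rich pair). The part of lymphatic, mesothelial and heart cells in the rise of the 10 was not tested. Among general epithelial genes 3 rose and 4 fell in controls, with a median of -0.24, where 25.3% of all genes rose and 22.3% fell. From P0 to P3 11 of the 14 fell in each genotype, where 6.34% of all genes in controls and 6.9% in CKO lungs did. The mean level of the 10 type 1 genes relative to general epithelial genes went from 0.59 ± 0.34 (log2, controls) at E16 to 2.39 ± 0.38 at P0 and 3.10 ± 0.11 at P3, and in CKO lungs from 0.45 ± 0.20 to 1.97 ± 0.36 and 2.91 ± 0.11. The genotypes' ranges overlapped in this difference at each stage. Relative to type 2 genes the 10 stood at 0.33 ± 0.15 at E16 and -0.77 ± 0.09 at P0 in controls, and at 0.37 ± 0.18 and -0.74 ± 0.14 in CKO lungs. At P3 they stood at -0.61 ± 0.09 in controls and -0.77 ± 0.23 in CKO lungs, with overlap, and the type 2 genes had a median change of -0.07 between genotypes at that stage (12 of 16 negative) against -0.30 for the 10.

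Within groups the 10 genes varied together. The correlations below are descriptions over deviations of log2 CPM from the 6 group means in 24 libraries, which share their depth, stage and dissection. Over the 45 pairs Pearson's r ran from -0.20 to 0.89 with a median of 0.53. The highest was that of Ager with Aqp5 (0.89), followed by Ager with Hopx (0.84), and Emp2 with Clic5 (0.78) and Pdpn with Cav1 (0.77) formed further close pairs. Pdpn and Akap5 had an r of -0.12. Igfbp2 was the least tied to the rest, with a median r of 0.16 and none above 0.36. Over the 22 libraries without the thymus-rich pair the pairs ran from -0.39 to 0.92 with a median of 0.47, Ager with Aqp5 again the highest.

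**Figure D5:**
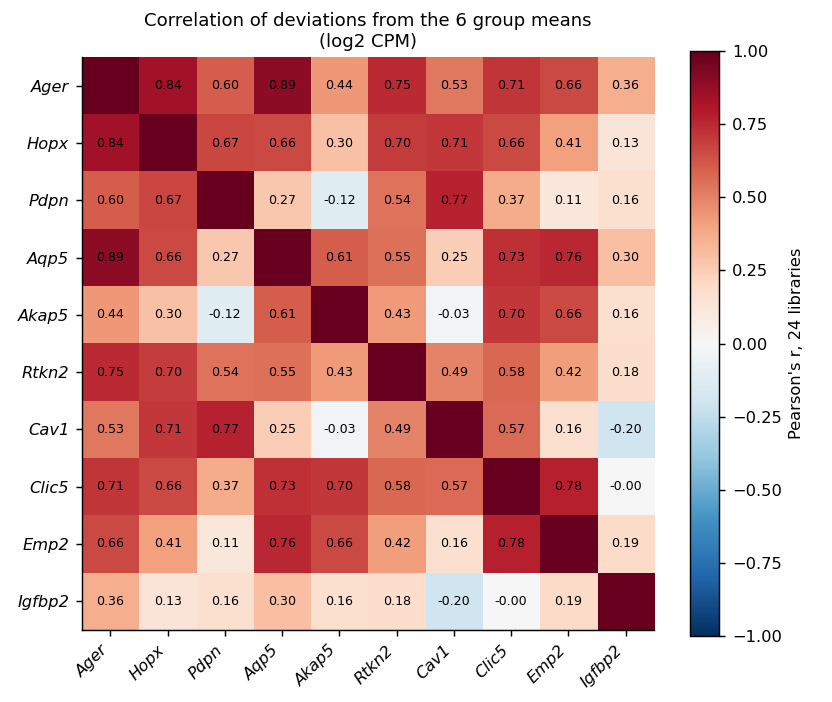
Pearson's r between the 10 genes (both axes) over the deviations of log2 CPM from the 6 group means in 24 libraries; red is positive and blue negative. Most pairs are positive, Igfbp2 is pale against all others, and Pdpn is red with Cav1 (0.77) and pale with Akap5 (-0.12) and Emp2 (0.11).

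Each gene's deviations were also set beside the mean of other lists. Ager had r = 0.86 with the other type 1 genes, 0.87 with endothelial genes, 0.80 with type 2 genes and 0.36 with general epithelial genes. Hopx (-0.65), Pdpn (-0.67) and Cav1 (-0.64) ran against the thymus genes, and without the 2 thymus-rich P0 libraries these became 0.01, 0.09 and 0.06. With heart muscle genes Hopx had r = -0.69, and -0.60 without those 2 libraries. Pdpn had r = 0.74 with the regulators, 0.61 with the other type 1 genes and 0.57 with fibroblast genes, and 0.56, 0.29 and 0.41 without those 2 libraries. It had r = 0.72 with endothelial, 0.43 with lymphatic and 0.36 with mesothelial genes, and 0.41, 0.13 and 0.27 without those 2 libraries. Igfbp2 had r = 0.67 with smooth muscle and 0.62 with mesothelial genes, and 0.17 with the other type 1 genes, and 0.77, 0.59 and 0.06 without them. The part of smooth muscle and mesothelium in the Igfbp2 levels was not tested.

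Of 13615 genes compared, those whose levels followed the mean of the 10 most closely over the 24 libraries were Phactr1, Vegfa, Slco3a1, Sftpc and Prx, each with r = 0.98. Vegfa, the endothelial growth factor gene, is also on the list of other type 1 genes, and stood at 249 ± 26.8 CPM in E16 controls, 714 ± 217 in P0 controls and 599 ± 83.9 in P3 controls. Over the deviations within groups the closest were Cutal (0.89), Hp (0.89), Pde8b (0.88), Ccdc78 (0.87) and Sftpc (0.87). Among the 10 themselves the r with their mean, which includes the gene, ran from -0.24 (Igfbp2) to 0.99 (Ager) over levels and from 0.32 to 0.95, held by the same genes, over deviations.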

How the data were processed

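RNA from whole lungs was made into cDNA libraries with an Illumina kit, per the labels' protocols, with 4 libraries in each of 6 groups. The deposited table holds the authors' RSEM expected counts per gene, whole numbers as deposited, for 51912 genes. Per the submitters' processing notes, the tools were RSEM 1.3.0, STAR 2.5.3a and edgeR, and the build was mm10. The sources used here give neither annotation nor strand setting, so reads of overlapping genes cannot be told apart, and reads shared with near-identical copies were split by estimate. Coordinates and exon lengths are from the GENCODE annotation of GRCm38 (mm10).

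The 10 genes and all other lists were chosen with earlier results of these data known. From the lists of other type 1 genes and regulators, the rule named every gene past the test, up to 6 with the smallest p, or otherwise the 2 with the smallest p. Pattern likeness used genes with a mean log2 CPM of at least 1. Libraries were grouped by title and scaled by TMM (CPM).

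CKO and control were compared per stage, and averaged with stage as a term, and stages were compared in one fit of 6 groups, with edgeR 4.0.16 (quasi-likelihood, robust, low counts filtered) in R 4.3.3 and Benjamini-Hochberg adjustment over all genes tested. The P3 against E16 contrast was added later. The tests were run on simulated data, with 200 genes changed and the same spread for every gene. Of 2-fold changes between genotypes they recovered 80.6% at E16, 2.99% at P0, 91% at P3 and 98.5% in the stage average. Of 1.5-fold changes they recovered 10.4%, 2.99%, 31.3% and 49.3%, so small changes at single stages would mostly be missed in genes of that common spread. The 10 genes differ in spread, with errors at P0 from 0.17 (Clic5) to 0.45 (Igfbp2), so these rates are not theirs one by one. Totals of 27.02 to 36.35 M make counting error small for all 10 genes except Aqp5 at E16. Alternatives were DESeq2 1.42.0, limma-voom (limma 3.58.1), other scalings and filters, non-robust dispersions, an Xist covariate, blocks, and leaving out libraries. Counts for the other lists and correlations without the thymus-rich pair were added after the data were seen.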

Additional observations from a re-analysis of the deposited data

Results flagged for a closer look

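In P3 CKO replicate 1 Hopx stood at 129 CPM, against 83.5 to 91.2 in the other 3 CKO lungs of that stage, a gap of 0.831 of the group's range, above Dixon's critical value. It was the 1 such value among 60 groups of 4 tested (10 genes in 6 groups), and chance flags about 1 group in 20. The same library was the highest P3 CKO lung in 9 of the 10 genes.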

How the results depend on the processing

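Over the 10 genes and 8 comparisons, 2246 alternative values kept their direction and side of the threshold, 26 passed newly, 5 no longer passed and 13 turned sign. The number of the 10 genes called between CKO and control lungs at E16 went from 0 to 1 with DESeq2. At P3 it ran from 0 to 6 when libraries were left out one at a time, with 6 only without P3 CKO replicate 1. In the stage average the 1 call became 2 with the identifier prefix block (Hopx, adjusted p = 0.0456). For controls from P0 to P3 the 1 call became 2 with DESeq2, 3 without both thymus-rich libraries, and 0 to 3 leaving out single libraries (0 without P0 control 1, P3 control 1 or P3 control 4, and 3 without P0 control 3 or P0 CKO 1). For CKO lungs it became 2 with a filter of 1 CPM in 4 libraries, DESeq2, limma-voom or the Xist covariate, 3 without both thymus-rich libraries, and 1 to 2 leaving out single libraries (2 without P0 control 1 or 3, P0 CKO 1 or 2, or P3 CKO 1). The cause was not tested in any of these. Leaving out that pair in the average and between stages was chosen after seeing the data.

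Signs turned at E16, CKO against control, leaving out single libraries, for Ager (-0.34 to 0.032), Hopx (-0.25 to 0.030, and 0.00080 without CKO 1), Rtkn2 (-0.19 to 0.022) and Clic5 (-0.39 to 0.047), and for Igfbp2 with the Xist covariate (0.058). At P0 they turned for Aqp5 (-0.48 to 0.036), Cav1 (-0.27 to 0.017) and Emp2 (-0.13 to 0.068, with 0.013 without control 4 and 0.00094 without control 2), and for Pdpn in controls from P0 to P3 (-0.36 to 0.044). None of these passed the test.

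Replicate numbers do not pair the samples. Same-numbered libraries of the 2 genotypes had deviations that correlated from -0.47 to 0.00 at E16, -0.43 to 0.67 at P0 and -0.17 to 0.25 at P3. With the replicate block 1 of the 10 genes was called in the stage average, 0 at each stage, 10 from E16 to P0 in each genotype and 1 from P0 to P3 in each. By identifier prefix the correlations ran from 0.03 to 0.67 for the 4 pairs at P0, against -0.43 to 0.16 for the other P0 pairs, from -0.17 to 0.49 at E16 and from -0.22 to 0.25 at P3, and that block changed the count in the stage average alone. Depth limits Aqp5 at E16 most, since its lowest library held 0.874 CPM.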
